A study of Mus musculus with 4 samples.

Results

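Genes of myelin and of the cells that make it were followed in the visual cortex of mice that lost 1 eye. The members were 9 genes (Mbp, Mog, Mag, Mobp, Cnp, Mal, Cldn11, Olig1 and Sox10), and every probe set whose only gene symbol in the platform's annotation was one of these names was taken. This gave 15 of the 12488 probe sets, for 8 of the 9 genes, out of 8252 genes that the array named alone. Olig1 was named by none of the probe sets and was not analysed here. The rule reads gene names and no signals, though earlier results of these data were known when the 9 genes were picked.

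The 4 samples were 2 deprived and 2 non-deprived samples of visual cortex, each read on 1 single-colour Affymetrix array. All mice were wild-type C57Bl6 animals, 5 in the study, reared in darkness from birth to postnatal day 42. On that day they lost 1 eye, and they then lived under a normal light-dark cycle for 4 days until day 46, so dark rearing, surgery and the light period were shared by both groups. Deprived cortex lay contralateral to the removed eye and non-deprived cortex ipsilateral to it, and tissue was pooled within each side. The sources used here do not give the division of the mice over the pools, so the p-values measure the spread between these 4 samples.

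Myelin is the membrane sheath that oligodendrocytes wrap around axons, and it speeds the conduction of impulses. MBP holds the inner faces of the compacted membrane together, MOBP and MAL are further proteins of compact myelin, CNP is an enzyme of its non-compact parts, MOG lies on the outer surface, MAG on the face next to the axon, and claudin-11 forms the tight junctions between the turns. The transcription factors OLIG1 and SOX10 drive the oligodendrocyte programme, and SOX10 acts on promoters and enhancers of myelin genes. In rodents, myelin genes of the cortex are strongly expressed in the weeks around weaning and can respond to neuronal activity.

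SOX proteins bind short motifs such as ACAAAG, and the promoters of the members were searched for these letters because Sox10 itself is a member. RefSeq promoters of build GRCm38.p6 ran from 250 bases before to 50 bases after an annotated start. Those searched came from 6 of the 9 genes (Mobp, Mag, Mog, Cnp, Mal and Cldn11), 8 promoters in all. The Mobp promoter at chr9:120149492-120149791 (plus strand) held 6 matches, all written CTTTGT on the gene's strand, the first beginning 243 and the last 120 bases before the start. Promoter sequences of Mobp and, for contrast, of Mag at chr7:30914814-30915113 (minus strand) and of Mog at chr17:37023349-37023648 (minus strand) are shown 5′ to 3′ on the strand of the gene, with every match to ACAAAG or its reverse complement CTTTGT in capitals.
Mobp: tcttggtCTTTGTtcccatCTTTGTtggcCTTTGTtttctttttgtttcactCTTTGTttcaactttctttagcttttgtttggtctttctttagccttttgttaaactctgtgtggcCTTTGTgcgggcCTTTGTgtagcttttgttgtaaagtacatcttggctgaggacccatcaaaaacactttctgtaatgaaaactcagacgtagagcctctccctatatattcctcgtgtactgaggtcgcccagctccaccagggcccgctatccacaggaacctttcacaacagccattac
Mag: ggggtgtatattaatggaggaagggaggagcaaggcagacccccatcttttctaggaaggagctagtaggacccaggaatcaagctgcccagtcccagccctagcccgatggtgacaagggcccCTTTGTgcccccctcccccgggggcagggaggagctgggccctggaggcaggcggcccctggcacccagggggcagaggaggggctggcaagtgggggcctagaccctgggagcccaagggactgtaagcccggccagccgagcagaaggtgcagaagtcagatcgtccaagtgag
Mog: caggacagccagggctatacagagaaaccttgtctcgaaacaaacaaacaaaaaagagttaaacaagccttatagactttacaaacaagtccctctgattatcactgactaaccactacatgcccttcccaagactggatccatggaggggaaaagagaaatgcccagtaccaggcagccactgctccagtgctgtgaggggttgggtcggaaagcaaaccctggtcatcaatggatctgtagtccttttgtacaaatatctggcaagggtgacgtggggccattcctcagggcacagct
Of 32851 promoters in the table, 18.7% held at least 1 match on either strand, 2.37% at least 2 and 0.198% at least 3. The Mobp promoter was the only 1 with 6, which was the highest number. The Mag promoter shown and that of Cnp had 1 match each, and those of Mog, Mal and Cldn11 had 0. The remaining Mag promoters, at chr7:30914873-30915172 and chr7:30914272-30914571, had 1 and 0. The related motif ACAATG, found on either strand in 12.6% of all promoters, was found in 0 of the 8. These matches describe letters only and were not tested for binding.

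The comparison asked whether myelin transcripts differed between the side of the cortex whose main eye was removed and the side whose main eye stayed. Signals are MAS5 values in arbitrary units, and differences are on the log2(signal + 60.6) scale, deprived minus non-deprived, so that changes of dim probe sets come out too small. A probe set was tested if its mean signal reached 142.9, the 40th percentile. This left 12 of the 15 probe sets, for 7 genes. In limma with Benjamini-Hochberg adjustment over 7458 probe sets, 0 of the 12 passed an adjusted p of 0.05, where 0.107% of all tested probe sets did. The lowest adjusted p among them was 0.545. At an unadjusted p under 0.05 there were 3, 1 higher and 2 lower in deprived cortex, and all 3 read Mobp. The share for all tested probe sets was 5.43% (1.77% higher and 3.66% lower).

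**Figure D1:**
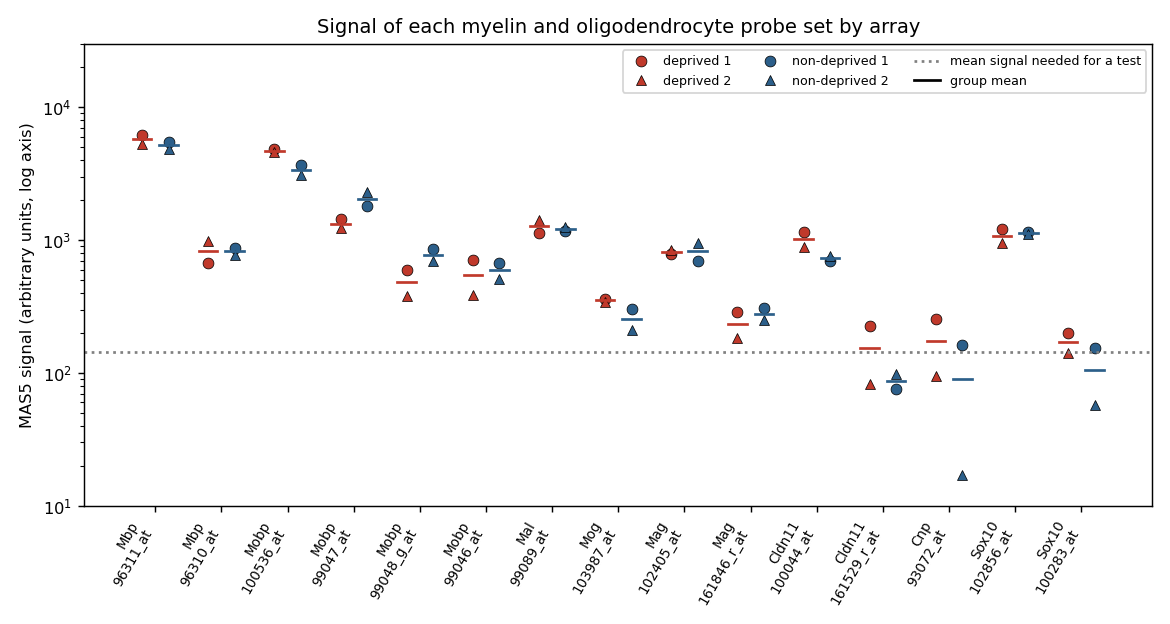
Signal of each of the 15 member probe sets (horizontal axis) on the 4 arrays, in arbitrary units on a log axis. Points are arrays, deprived to the left of non-deprived, short lines are group means and the dotted line is the mean signal of 142.9 needed for a test. Both deprived arrays lie above both non-deprived arrays for the Mobp probe set 100536_at, and below them for 99047_at and 99048_g_at.

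Mobp gave opposite differences at its probe sets. At its brightest, 100536_at, signals were 4853 and 4575 on deprived arrays 1 and 2, against 3707 and 3079 on non-deprived arrays 1 and 2. Both deprived arrays were higher, with a log2 difference of 0.47 ± 0.17 (SE, n = 2 per group), a ratio of mean signals of 1.39 and an adjusted p of 0.687 in limma. At 99047_at the order was turned round, with 1435 and 1233 in deprived cortex, against 1806 and 2297 in non-deprived cortex. Its log2 difference was -0.59 ± 0.19 (SE, n = 2 per group; adjusted p = 0.545 in limma). The dimmer 99048_g_at, which cites the same cDNA record as 99047_at in the platform's annotation, had 595 and 379 in deprived cortex, against 861 and 695 in non-deprived cortex, a log2 difference of -0.64 ± 0.26 (adjusted p = 0.836 in limma). These 2 probe sets are therefore not independent of each other, and the groups overlapped at neither. The last Mobp probe set, 99046_at, had 714 and 384.5 in deprived cortex, against 676 and 510.2 in non-deprived cortex, and there the groups overlapped.

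Set beside each other on the same array, the Mobp probe sets separated the groups. The log2 ratio of 100536_at to 99047_at was 1.72 and 1.84 on the deprived arrays, against 1.01 and 0.41 on the non-deprived arrays. That of 100536_at to 99048_g_at was 2.91 and 3.40 in deprived cortex, against 2.03 and 2.06 in non-deprived cortex. The ratio to 99046_at was 2.67 and 3.38, against 2.36 and 2.46. All 3 ratios were higher on both deprived arrays, by 1.07, 1.11 and 0.62 on the log2 scale. An exact permutation test (two-sided) gave p = 0.333 for each, the smallest p that 2 arrays against 2 allow, or 0.556 adjusted over the 5 ratios computed. The ratios share the signal of 100536_at. Those to 99047_at and 99048_g_at had to separate the groups, since 100536_at was higher and these were lower on both deprived arrays. Their separation and p therefore add nothing to the signals given above. RefSeq lists 2 curated coding and 3 curated noncoding transcripts of Mobp, and which of them each probe set reads was not analysed here. The 5′ to 3′ signal ratio of the actin control probe sets, a sign of RNA integrity, was 0.544 and 0.463 on the deprived arrays, against 0.638 and 0.632 on the non-deprived arrays. That of Gapdh was 0.745 and 0.689, against 0.875 and 1.07. Both control ratios were lower on both deprived arrays, and their part in the Mobp result was not tested.

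Other genes also had probe sets with unlike differences. The log2 differences of the 4 Mobp probe sets spanned 1.11. Of the 921 genes with at least 2 tested probe sets, 6.08% spanned as much or more, as did 3 of the 14 genes with at least 4, Mobp itself counted in both. A probe set higher and another lower on both deprived arrays was found for 57 of the 921 genes, or 6.19%, again with Mobp among them. Of the 14 genes with at least 4 tested probe sets, it was found for 1, Mobp itself.

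**Figure D2:**
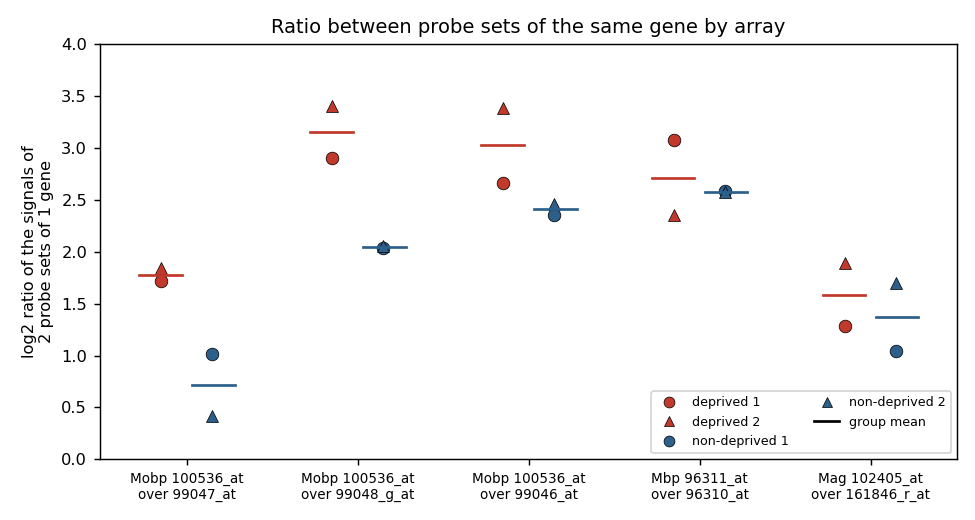
Log2 ratio of the signal of a gene's brightest probe set to that of each of its other tested probe sets (vertical axis) for Mobp, Mbp and Mag, by array. Points are arrays, deprived to the left of non-deprived, and lines are group means. The groups separate for the 3 ratios of Mobp and overlap for those of Mbp and Mag.

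The other genes of compact myelin, Mbp and Mal, did not separate the groups. Mbp, whose locus also makes the golli transcripts, had 6150 and 5317 in deprived cortex, against 5521 and 4900.1 in non-deprived cortex, at its brighter probe set 96311_at. The groups overlapped, and the log2 difference was 0.14 ± 0.18 (SE, n = 2 per group) with a 95% interval from -0.25 to 0.52. At 96310_at, Mbp had 674 and 994 in deprived cortex, against 872 and 775 in non-deprived cortex. Here the deprived arrays took the lowest and the highest place, and the difference of -0.003 ± 0.23 has an interval from -0.50 to 0.50. The log2 ratio of the 2 Mbp probe sets was 3.08 and 2.35 on the deprived arrays, against 2.58 and 2.57 on the non-deprived arrays (exact permutation p = 1.0, two-sided). Mal, a membrane-spanning protein of compact myelin, had 1128 and 1429 in deprived cortex, against 1173 and 1254 in non-deprived cortex. Its difference of 0.06 ± 0.19 was smaller than the gap of 0.33 between the deprived arrays.

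Among proteins of the myelin surface and its junctions, Cldn11 and Mog were higher on both deprived arrays, as were 15.1% of all tested probe sets, and neither passed the test. Cldn11 had 1159 and 895 at its brighter probe set in deprived cortex, against 703 and 758 in non-deprived cortex. The log2 difference was 0.45 ± 0.21 (SE, n = 2 per group), with a 95% interval from -0.009 to 0.91 and an adjusted p of 0.915 in limma. Mog had 361 and 343 in deprived cortex, against 303 and 210.2 in non-deprived cortex, a log2 difference of 0.40 ± 0.34 (adjusted p = 0.999 in limma). Its groups did not overlap, but the non-deprived arrays lay 0.42 apart on the log2 scale, about as far as the groups. Mag, which binds the axon surface, overlapped at both of its probe sets. At 102405_at it had 782 and 844 in deprived cortex, against 700 and 949.9 in non-deprived cortex. At the dimmer 161846_r_at the values were 286 and 184 in deprived cortex, against 309.6 and 250.4 in non-deprived cortex. The log2 ratio between them was 1.28 and 1.89, against 1.04 and 1.70, so on both sides it was higher on array 2 (exact permutation p = 0.667, two-sided).

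Sox10, the transcription factor, had 1215 and 953.5 in deprived cortex, against 1145 and 1116 in non-deprived cortex, at its tested probe set. The non-deprived arrays lay between the deprived ones, and the log2 difference was -0.07 ± 0.19 (SE, n = 2 per group), with an interval from -0.49 to 0.36. A second probe set of Sox10, the 1 probe set of Cnp and the dimmer of Cldn11 missed the required signal, with means of 138.8, 132.4 and 120.7. The tested probe set closest to the limit was the dimmer one of Mag, with a mean of 257. Sox10 had 201 and 141.6 there in deprived cortex, against 154.6 and 57.9 in non-deprived cortex. Cnp had 253.5 and 95.5, against 163.5 and 17.1. Cldn11 had 226 and 82.5, against 75.5 and 99. For all 3, deprived array 1 was the highest and the groups overlapped.

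**Figure D3:**
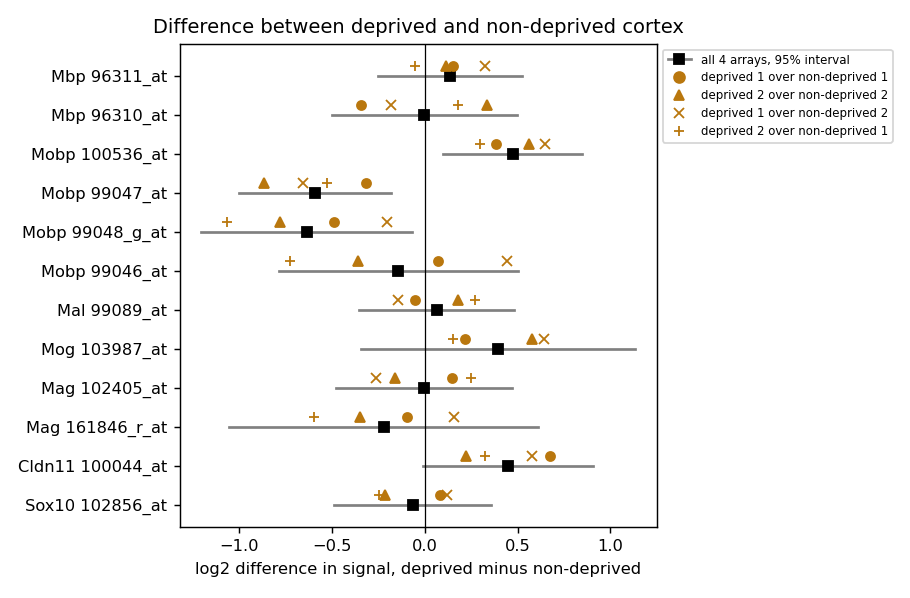
Log2 difference in signal, deprived minus non-deprived (horizontal axis), for the 12 tested probe sets. Squares and lines are limma's estimate from all 4 arrays with its 95% interval, and the smaller marks are each deprived array minus each non-deprived array. The intervals of 3 Mobp probe sets exclude 0, 1 above it and 2 below it, before adjustment for the 7458 probe sets.

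Over the 12 tested probe sets, 5 log2 differences were above 0 and 7 below, with a median of -0.004, beside 0.001 over all tested probe sets. Counted once per gene at the brightest probe set, 5 of 7 were above 0 and the median was 0.14. Arrays did not overlap between the groups at 5 of the 12, 3 higher (Mobp, Cldn11 and Mog) and 2 lower (both Mobp), where 32.2% of all tested probe sets did not overlap (15.1% higher and 17.1% lower). Standard errors ran from 0.17 to 0.38. Deprived array 1 held the highest signal at 6 of the 12 probe sets and deprived array 2 the lowest at 5. The median difference of the 12 was 0.08 in the pair of arrays numbered 1 and -0.02 in the pair numbered 2. In the crossed pairs it was 0.14 for deprived array 1 over non-deprived array 2 and 0.05 for deprived array 2 over non-deprived array 1. In pooled tissue, a difference in the number of oligodendrocytes and one in RNA per oligodendrocyte could not be told apart. Over the 7458 tested probe sets, deprived array 1 correlated least with the remaining arrays, with a mean r of 0.91, and the other 3 arrays had 0.93 each.

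Further genes of the oligodendrocyte and of myelin were read at their brightest probe sets, and none of their 5 lists held a gene past the threshold. At an unadjusted p under 0.05 in limma these lists held 2 higher genes (Gsn and Ptgds) and 2 lower ones (Elovl1 and Kcna2). Gsn and Ptgds were among 15 tested genes, Elovl1 among 7 and Kcna2 among 9. The lists of 9 myelin proteins and of 11 transcription factors and precursors held 0. Of all tested probe sets, 5.43% passed the same limit, 1.77% higher and 3.66% lower. Of 9 tested genes of other myelin proteins, 5 were higher and 4 lower in deprived cortex, with a median log2 difference of 0.08. Bin1, a membrane-bending adaptor, had 4736 and 5992 in deprived cortex, against 4138 and 4266 in non-deprived cortex, yet its other probe set gave -0.23. Evi2a differed by 0.29 ± 0.34 and -0.36 ± 0.55 (SE) at its 2 probe sets, and Jam3 by -0.26 ± 0.47. Of 7 genes for myelin lipids, 4 were higher and 3 lower, with a median of 0.07. Elovl1, which lengthens very-long-chain fatty acids, had 682 and 520.2 in deprived cortex, against 1114 and 948 in non-deprived cortex. Its log2 difference was -0.73 ± 0.22 (SE, n = 2 per group; adjusted p = 0.513 in limma). Degs1, of ceramide synthesis, differed by 0.16 ± 0.23 and the desaturase gene Scd2 by 0.10 ± 0.19. The other probe set of Scd2 gave -0.06 ± 0.17. The 2 further genes of this list were too dim to test and lower on both deprived arrays, as were 17.1% of all tested probe sets. Ugt8a, which makes galactosylceramide, had 40.3 and 42.1 in deprived cortex, against 135.5 and 154.8 in non-deprived cortex, and the ceramide synthase gene Cers2 had 74.2 and 120.2, against 214 and 142.3. Among the untested genes of the remaining lists of these 5, Sox6 was lower and Vcan higher on both deprived arrays. For Gjb1, Anln, Klk6, Gpr37, Sox5 and Erbb4, also untested, the groups overlapped.

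Of 15 other genes of mature oligodendrocytes, 10 were higher and 5 lower in deprived cortex, with a median of 0.04. At an unadjusted p under 0.05, 2 of the 15 were higher and 0 lower, where 1.77% of all tested probe sets were higher. Gsn, which severs actin filaments, had 759 and 713 in deprived cortex, against 388 and 431 in non-deprived cortex, a log2 difference of 0.76 ± 0.24 (SE, n = 2 per group; adjusted p = 0.535 in limma). Ptgds, the prostaglandin D synthase, which cells of the meninges also express, had 20056 and 26192 in deprived cortex, against 15906 and 13980 in non-deprived cortex. It differed by 0.62 ± 0.24 at this probe set (adjusted p = 0.771 in limma), and by 0.35 at each of its other 2. Cdkn1c, an inhibitor of the cell cycle, differed by 0.66 ± 0.47.

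Of 11 genes of transcription factors and precursors, 9 were higher and 2 lower in deprived cortex, with a median of 0.05, beside 50.2% of all tested probe sets above 0. Among the 9, Tcf7l2, Yy1, Id2, Id4 and Ptprz1 differed by 0.05 or less. The precursor gene Pdgfra was lower on both deprived arrays, with 748 and 850 against 900 and 1003, a difference of -0.235 ± 0.20 (SE). Myrf, the other lower gene, gave -0.18 ± 0.30 with overlapping groups. Nkx2-2 and Nkx6-2, homeobox factors of the lineage, were the 2 of the 11 that were higher on both deprived arrays, as were 15.1% of all tested probe sets. Nkx2-2 had 236 and 204 in deprived cortex, against 145 and 124 in non-deprived cortex, and Nkx6-2 had 235 and 257, against 165 and 143. Their differences of 0.52 ± 0.47 and 0.52 ± 0.44 (SE) were little more than their errors. Hes5, a Notch target, differed by 0.35 ± 0.40. Its other probe set, too dim to test, was lower on both deprived arrays, with 60.2 and 25.2 against 145.3 and 63.9. Of 9 genes for axonal and signal partners of myelin, 3 were higher and 6 lower, with a median of -0.04. Kcna2, a potassium channel placed beside the nodes of myelinated axons, had 112 and 168 in deprived cortex, against 322 and 413 in non-deprived cortex. Its log2 difference was -1.10 ± 0.40 (SE, n = 2 per group; adjusted p = 0.698 in limma), while Kcna1, which lies at the same place, gave -0.15 ± 0.23. Pdgfa, a growth factor for oligodendrocyte precursors, gave 0.11 ± 0.20.

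**Figure D4:**
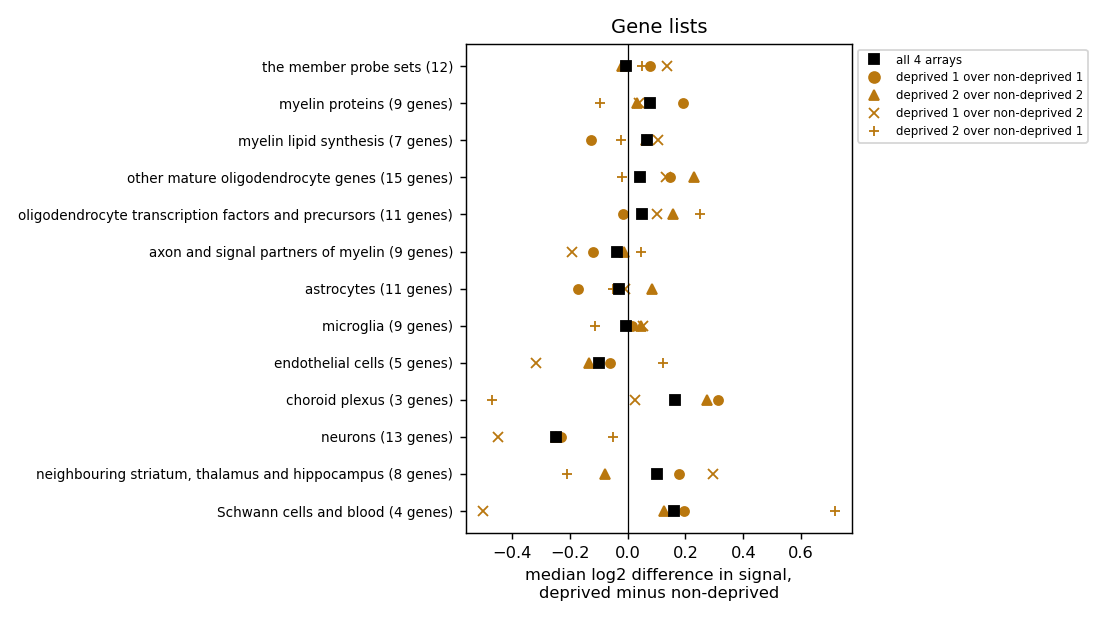
Median log2 difference in signal, deprived minus non-deprived (horizontal axis), of the 12 member probe sets and of 12 gene lists. Squares use all 4 arrays and the smaller marks each deprived array minus each non-deprived array. The lists, read at each gene's brightest probe set, have medians between -0.04 and 0.08 for myelin, oligodendrocytes and their partners and of -0.25 for neurons. The members' median is -0.004 over all 12 probe sets and 0.14 over the brightest probe set of each gene, which is not drawn.

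Markers of other cells in the tissue were set beside these values. Of the neuronal list, 10 of 13 genes were lower in deprived cortex, with a median of -0.25, and 1 of them, Syt1, fell past the threshold. At an unadjusted p under 0.05, 4 were lower, where 3.66% of all tested probe sets were. Its summed signal was 49160 and 59403 in deprived cortex, against 57410 and 63051 in non-deprived cortex. The astrocyte, microglia and endothelial lists had medians of -0.03, -0.005 and -0.10, over 11, 9 and 5 tested genes. Markers of the neighbouring striatum, thalamus and hippocampus had a median of 0.10 over 8 genes and a summed signal of 4847 and 3638 in deprived cortex, against 3865 and 3919 in non-deprived cortex, with the highest sum on deprived array 1. The choroid plexus list had a median of 0.17 over 3 genes, with Ttr and Kl too dim to test. Ttr had 258.3 and 39.8 in deprived cortex, against 48.7 and 67.0 in non-deprived cortex, and Kl had 29.8 and 9.8, against 13.5 and 22.9. Both were highest on deprived array 1. The list for Schwann cells and blood had a median of 0.16 over 4 genes, and its summed signal ran from 3695 to 8612 in deprived cortex, against 4465 to 5985 in non-deprived cortex. The part of these cell types in the myelin values was not tested.

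The genes whose profile over the 4 arrays was most like the median profile of the 7 tested members were named by the smallest root mean square difference of their centred log2 values. That median profile, taken over each member's brightest probe set, was 0.17 and 0.05 on the deprived arrays, against -0.08 and -0.15 on the non-deprived arrays. The closest of 5369 candidates were Psmd8, a subunit of the proteasome lid, and the noncoding RNA Snhg6, at 0.013 and 0.014. Kcnab2, a potassium channel subunit, followed at 0.029, and Pex14, of peroxisome import, and the vesicle protein Vamp4 at 0.031. Psmd8 had 733 and 672 in deprived cortex, against 604 and 561 in non-deprived cortex. With 4 arrays, such likeness is a description, and none of these 5 probe sets passed the test.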

How the data were processed

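RNA of 2 deprived and 2 non-deprived samples was measured on 1 array each, with about 10 µg of total RNA, per the labels' protocols. The deposited intensities are linear signals, 1 for each probe set, and came out of the authors' MAS5 run (submitters' processing notes). The sources used here do not give its version, detection calls or target value. The 2% trimmed mean was 500.3 or 500.4 on each array.

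Arrays were scaled to a common trimmed mean, 60.6 (the 20th percentile of the mean signals) was added and log2 was taken. Control probe sets and dim ones (mean signal under 142.9, the 40th percentile) were dropped. limma 3.58.1 in R 4.3.3 (lmFit, eBayes with a mean-variance trend) fitted all 7458 others, two-sided. Tested on simulated data (20 runs, 200 of 7458 probe sets altered), it called 40.8% at a change of 1 and 87.1% at a change of 2 on the log2 scale, with 4.9% of calls false. The simulated errors were normal, independent between arrays and probe sets, and of a spread set by the mean signal alone, as the trend assumes. These rates therefore need not hold for the real arrays. The number of arrays limits the precision.

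Symbols of the 10855 probe sets with 1 symbol were updated through Entrez identifiers in a RefSeq table of GRCm38.p6 (10839 matched). A list gene was read at its brightest probe set. Named were all member probe sets, the genes past the threshold or otherwise the 3 largest differences of each of the first 5 lists, and the 5 closest profiles among probe sets with at least the members' range. Outside this rule, the untested genes of the first 5 lists, Ttr, Kl and further genes of the transcription factor and precursor list were also named. The members and lists were chosen with earlier results of these data known. The design text's mention of cross-animal comparisons implies that same-numbered arrays share animals, without saying which. Their deviations from the group means correlated with r = 0.27 over probe sets. All printed errors, intervals and p-values are unpaired, and a fit with the replicate block was an alternative, beside other pseudocounts, filters, scalings, a fit without the trend and leaving out each array.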

Additional observations from a re-analysis of the deposited data

How the results depend on the processing

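No member probe set passed the threshold under any alternative run, the replicate block and an adjusted p of 0.2 included. The count over all tested probe sets, 8, became 40 with the replicate block, 27 at an adjusted p of 0.2, 3 with arrays scaled to a common median, 1 after quantile normalization and 0 without the mean-variance trend, and ran from 5 to 90 with 1 array left out. The cause was not tested, apart from the looser threshold. The block changed no call of a member. The members' median of -0.004 was 0.135 over the brightest probe set of each gene. The count of 5 probe sets without overlap between groups ran from 7 to 10 with 1 array left out, since fewer arrays had to be apart, and was 10 without either deprived array. With all 4 arrays kept, this count was 7 after scaling to a common median, 6 after quantile normalization and 4 with the filter at the 60th percentile. Of 142 values of single probe sets under the alternatives, 130 kept their direction and 12 turned it, all of differences of 0.22 or less in size. With 1 array left out, Mag ran from -0.21 to 0.199 at 102405_at and from -0.473 to 0.029 at 161846_r_at, the dimmer Mbp probe set from -0.264 (without deprived array 2) to 0.257 (without deprived array 1), Mobp at 99046_at from -0.543 (without deprived array 1) to 0.257 (without deprived array 2), Mal from -0.1 to 0.225 and Sox10 from -0.232 to 0.099. With a common median the brighter Mag and the dimmer Mbp probe sets gave 0.015 and 0.02, and after quantile normalization that of Mag gave 0.011. The other 3 Mobp probe sets, the brighter Mbp probe set, Cldn11 and Mog kept their direction under every alternative fitted to them, but single arrays moved some of their sizes. Mobp at 99048_g_at gave -0.348 without deprived array 2 and -0.925 without deprived array 1, Cldn11 0.273 without deprived array 1, Mog 0.184 without non-deprived array 2 and 0.608 without non-deprived array 1, and Mbp 0.031 without deprived array 1. Mobp ran from 0.341 to 0.604 at 100536_at and from -0.761 to -0.424 at 99047_at. Fits without 1 array take the lone array of a side to vary like the other side. The filter at the 60th percentile left out Mog and the dimmer Mag probe set.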
